A study of Mus musculus with 4 samples.

Results

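Checkpoint and costimulation genes encode receptors on T cells and the ligands through which myeloid cells and B cells hold T cells back or help them on. The 10 genes described here were taken by symbol from the gene rows of 2 single-cell RNA libraries of mouse lung leukocytes, 10 of 32285 rows in all. They are the receptor genes Ctla4, Icos, Pdcd1 (PD-1), Lag3, Tigit and Havcr2 (TIM-3) and the ligand genes Cd274 (PD-L1), Pdcd1lg2 (PD-L2), Cd80 and Cd86. All 10 symbols were found once in both libraries.

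The study compared C57B6/J wild-type (WT) mice with Plaur–/– mice, which lack the gene of the urokinase receptor uPAR. Both groups received ovalbumin (OVA) together with lipopolysaccharide (LPS) on days 0 and 7 and inhaled OVA on day 14, so neither group is an unsensitized or unchallenged control. Minced and digested lung was sorted for CD45.2, the pan-leukocyte surface protein, and there was 1 RNA library per genotype. The labels count 8 mice in each genotype but not the animals pooled per library, and give no ages that were used here. The libraries are called WT-labelled and KO-labelled below because Plaur RNA was present in both, at 526 and 455 CPM (UMIs of a gene as a share of all UMIs summed, on the usual CPM scale). A 3′ tag can lie outside the deleted part of a gene, so this value checks nothing. With a single library on each side, differences could not be tested, and every interval printed is a 95% interval for counting error only.

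Receptors of the CD28 family read the antigen-presenting cell. CD28 and ICOS add to the signal from the T cell receptor, while CTLA-4 competes with CD28 for CD80 and CD86, and PD-1 dampens the signal when it binds PD-L1 or PD-L2. LAG-3 binds MHC class II, TIGIT binds the nectin-like protein CD155, and TIM-3 is carried by dendritic cells and macrophages as well as by T cells. In the lung these genes are known from regulatory T cells, from effector T cells that have met antigen, and from dendritic cells that have matured.

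The genes sit in a few genomic neighbourhoods, given here on GRCm38.p6 with the RefSeq gene spans. Cd274 (chromosome 19, 29362107 to 29388095) and Pdcd1lg2 (chromosome 19, 29410919 to 29472927) lie 22.8 kb apart. Ctla4 (chromosome 1, 60909025 to 60915832) and Icos (chromosome 1, 60960773 to 61000322) lie 44.9 kb apart, with Pdcd1 at 94038305 to 94052553 on the same chromosome. Cd86 (36568956 to 36666158), Cd80 (38457430 to 38495958) and Tigit (43626137 to 43665125) are on chromosome 16. Lag3 is on chromosome 6 (124904359 to 124912434) and Havcr2 on chromosome 11 (46454931 to 46481255). RefSeq promoter sequences were at hand for 7 of the 10 genes. Those of the neighbours Cd274 and Pdcd1lg2 are shown because their levels parted between the cell classes below, and that of Cd80 because its level was highest in neutrophils. Each is the 250 bases before the table's start site on the plus strand, 5′ to 3′, at chr19:29367188-29367437, chr19:29410669-29410918 and chr16:38458683-38458932, and capitals mark matches to the motifs named next. For Cd274 and Cd80 that start site lies inside the gene's span.
Cd274: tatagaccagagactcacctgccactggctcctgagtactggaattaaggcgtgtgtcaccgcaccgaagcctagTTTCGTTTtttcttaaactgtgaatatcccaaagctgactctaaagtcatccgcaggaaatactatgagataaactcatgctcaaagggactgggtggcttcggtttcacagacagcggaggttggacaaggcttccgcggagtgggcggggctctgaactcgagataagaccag
Pdcd1lg2: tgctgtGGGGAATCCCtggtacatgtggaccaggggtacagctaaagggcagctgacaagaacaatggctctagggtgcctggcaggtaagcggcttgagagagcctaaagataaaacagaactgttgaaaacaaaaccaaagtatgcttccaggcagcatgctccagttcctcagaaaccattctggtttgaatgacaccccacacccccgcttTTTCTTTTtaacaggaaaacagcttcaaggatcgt
Cd80: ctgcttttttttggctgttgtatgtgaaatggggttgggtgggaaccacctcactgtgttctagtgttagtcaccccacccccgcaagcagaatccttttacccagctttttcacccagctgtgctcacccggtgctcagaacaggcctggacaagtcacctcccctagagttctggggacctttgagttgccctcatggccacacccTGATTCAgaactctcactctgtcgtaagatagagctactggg

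Both strands were searched for 4 motifs. An IRF core (AANNGAAA) was in the windows of Cd274, Pdcd1lg2 and Pdcd1 and in 21.3% of 32851 promoters of the same length. The AP-1 motif (TGANTCA) was in those of Cd80 and Havcr2 and in 6.75% of promoters, and an NF-kB motif was in that of Pdcd1lg2 and in 7.25% of promoters. The GAS motif (TTCNNNGAA) was in none of the 7 windows and in 7.02% of promoters. A match describes letters in the window and is not a site.

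After filtering, 8665 WT-labelled and 9624 KO-labelled cells remained, with medians of 3205 and 2780 UMIs, and 16 barcodes occurred in both libraries. Clusters were made without the 10 genes and without the genes of the pathway lists below, so that none of these entered the clustering. The 10 genes were not among the naming markers either. Of 47 clusters, 37 were named from marker genes, and 459 WT-labelled and 389 KO-labelled cells stayed unnamed. The 18 classes with at least 50 cells in each library were compared. They are naive CD4 T (283 WT-labelled and 281 KO-labelled cells), activated CD4 T (317 and 293), regulatory T (166 and 152), naive CD8 T (153 and 173), effector CD8 T (256 and 150), ILC2 (55 and 64), NK (330 and 468), neutrophil (2278 and 3316), alveolar macrophage (1024 and 632), interstitial macrophage (793 and 706), classical monocyte (203 and 770), nonclassical monocyte (77 and 137), cDC1 (186 and 247), cDC2 (273 and 356), CCR7 dendritic cell (134 and 118), plasmacytoid dendritic cell (76 and 93), B cell (1482 and 1117) and plasma cell (79 and 111). Class names are rebuilt from markers and short for "-like" throughout. A level is the CPM of the UMIs summed over the class, with the WT-labelled value first.

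The level plot shows receptors and ligands in different classes. Ctla4, Icos and Tigit had their highest class level in regulatory T cells, and Pdcd1 and Lag3 theirs in effector CD8 T cells. Havcr2 was highest in cDC1, the dendritic cells that cross-present antigen to CD8 T cells. Cd274, Pdcd1lg2 and Cd86 were highest in CCR7 dendritic cells, the mature, migrating state, and Cd80 in neutrophils. The same class came first for all 10 genes when the mean over cells of each cell's own CPM was used. By the share of cells with a UMI, CCR7 dendritic cells came first for Cd80 and cDC1 for Cd86, and by the thinned share nonclassical monocytes came first for Havcr2.

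**Figure D1:**
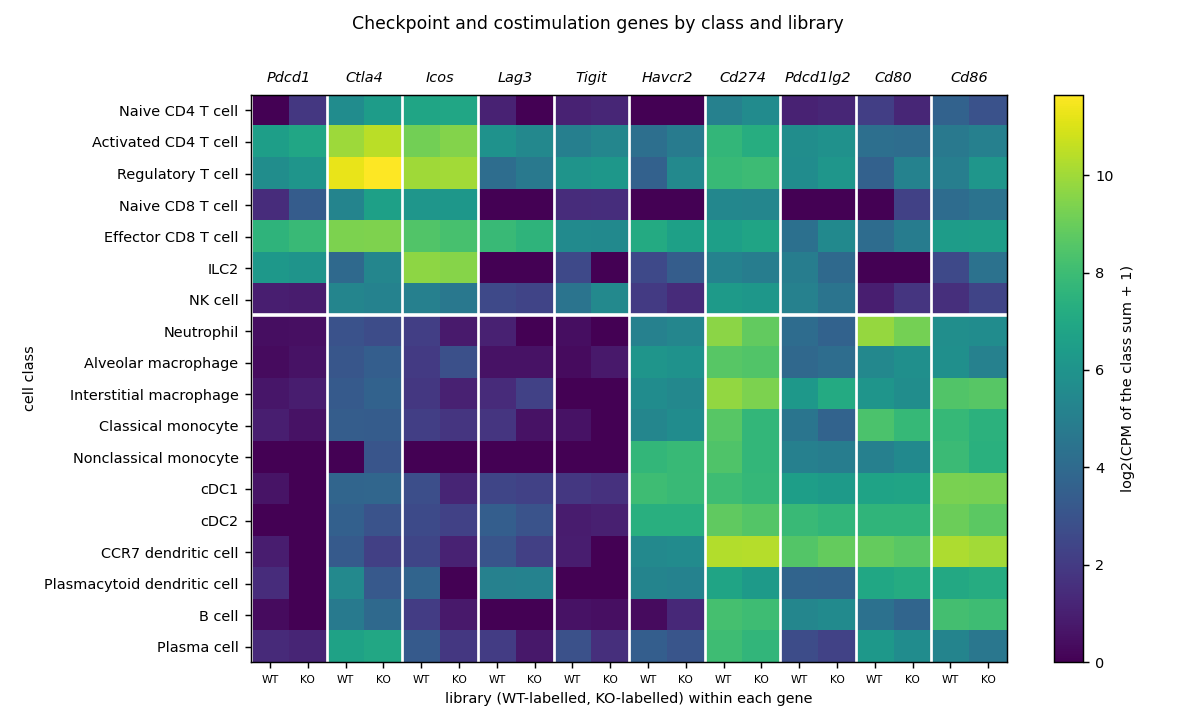
Level of the 10 genes (columns, WT-labelled and KO-labelled library side by side) in the 18 compared cell classes (rows), as log2(CPM of the class sum + 1), with 1 library per genotype and no error shown. Within a gene, the receptor genes are brightest in the T cell rows above the white line, Havcr2 apart, and the ligand genes in the rows below it.

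Differences between the libraries were mostly small against this spread over classes. Of 180 gene and class pairs, 113 held at least 20 UMIs over both libraries. Of these, 8 were at least 2-fold higher in the KO-labelled library (7.08%), against 2.31% of 141485 pairs of all genes and classes, and 3 were at least 2-fold lower (2.65%), against 2.44%. Only 2 of the 11, Tigit in NK cells and Ctla4 in naive CD8 T cells, held 50 UMIs or more, so the count rests on pairs with few molecules. In regulatory T cells 3 of 10 genes were 2-fold higher, against 2.45% of 6276 genes in that class. The class medians over all genes lay between -0.07 and 0.06 on the log2 scale.

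Ctla4, which encodes the inhibitory receptor that regulatory T cells carry at all times, stood at 2478 and 3210 CPM in regulatory T cells, from 1311 and 1388 UMIs. The ratio of the KO-labelled to the WT-labelled level was 0.37 on the log2 scale (interval 0.26 to 0.48), and ratios below are given the same way. Cells with at least 1 Ctla4 UMI made up 91.0% and 96.7%, and 75.3% and 86.1% once each cell had been thinned to 1000 UMIs. Activated CD4 T cells came next with 980.0 and 1391 CPM (0.51, 0.38 to 0.63), and effector CD8 T cells followed with 648 and 669 CPM (0.04, -0.16 to 0.25). Both CD4 classes were thus higher in the KO-labelled library beyond counting error, by less than 2-fold, while effector CD8 T cells did not part. The order of these classes was the same in both libraries, and no 2 neighbours among the 3 had overlapping counting intervals.

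Within the CD4 classes the Ctla4 difference was present in each cluster. The activated cluster led by Il17a, Il21 and Tnfsf8 (104 and 86 cells) had 1743 and 2685 CPM (0.62, 0.46 to 0.78). The cluster led by Cd4 and Cd40lg (213 and 207 cells) had 593 and 824 CPM (0.47, 0.28 to 0.67). The larger regulatory cluster, with Foxp3 and Tnfrsf4 (137 and 129 cells), had 2844 and 3529 CPM (0.31, 0.20 to 0.42). In the small Gpr83 cluster (29 and 23 cells) the levels were 699 and 1129 CPM (0.69, 0.17 to 1.22). All 4 clusters of the CD4 classes thus had more Ctla4 in the KO-labelled library.

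Naive T cells held little Ctla4. Naive CD8 T cells had 37.6 and 96.1 CPM from 21 and 51 UMIs (1.35, 0.59 to 2.16; 0.88 at a clustering resolution of 0.5), with a UMI in 11.8% and 20.2% of cells. Naive CD4 T cells had 49.7 and 86.1 CPM from 43 and 64 UMIs (0.79, 0.21 to 1.38), and the ratio was 0.25 after thinning. Neutrophils, which should lack Ctla4, had a UMI in 0.966% and 1.09% of cells at median depths of 1746 and 1730 UMIs, against 3706 and 3011 in naive CD8 T cells. After thinning, 3.95% and 8.14% of naive CD8 T cells held a Ctla4 UMI. Plasma cells had 102 and 127 CPM (0.32, -0.01 to 0.65) at the deepest coverage of the compared classes, 14183 and 12032 UMIs per cell, and their share of cells with a UMI dropped from 50.6% and 56.8% to 5.06% and 12.7% after thinning. Their 10 T cell markers summed to 170 and 40.4 CPM, and the part of these in the Ctla4 values was not tested.

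In plasmacytoid dendritic cells the 25 WT-labelled and 5 KO-labelled Ctla4 UMIs gave 44.4 and 8.68 CPM (-2.35, -4.10 to -0.94). T cell markers moved with it there: they summed to 144 CPM with 0 of 10 at 0 in WT-labelled cells and to 6.94 CPM with 7 of 10 at 0 in KO-labelled cells. The part of these markers in the Ctla4 difference was not tested. After thinning the ratio turned to 0.33 on very few UMIs. B cells had 26.7 and 15.02 CPM (-0.83, -1.39 to -0.29), of which the Sox5 and Fcrl5 cluster (180 and 126 cells) had most, with 66.6 and 35.5 CPM.

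Icos, the costimulatory receptor of T cells that have been activated, had 1021 and 1059 CPM in regulatory T cells (0.05, -0.13 to 0.24). ILC2, the innate cells that make type 2 cytokines, had 819 and 748 CPM from 167 and 151 UMIs (-0.13, -0.46 to 0.19). The counting intervals of these classes overlapped in the WT-labelled library (936 to 1111 CPM against 699.9 to 954 CPM) and not in the KO-labelled one (964 to 1161 CPM against 633 to 877 CPM), so their order was clear only there. Activated CD4 T cells had 576 and 726 CPM (0.33, 0.17 to 0.50), followed by effector CD8 T cells with 353 and 309 CPM (-0.19, -0.50 to 0.10), naive CD4 T cells with 116 and 119.7 CPM and naive CD8 T cells with 68.1 and 69.7 CPM. In neutrophils 0.307% and 0.0603% of cells held an Icos UMI.

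The Icos difference in activated CD4 T cells lay in 1 of their 2 clusters. The Il17a and Il21 cluster had 550.2 and 977 CPM (0.83, 0.55 to 1.11). In the Cd40lg cluster the levels were 589 and 616 CPM (0.06, -0.14 to 0.27), and the interval of the first does not reach that of the second. Ctla4 was higher in both, as given above. The 2-fold calls for Icos in myeloid classes rest on few molecules: neutrophils held 19 and 6 UMIs (-2.12), interstitial macrophages 17 and 5 (-1.26) and alveolar macrophages 24 and 25 (1.03). Without the 5 cells with most Icos UMIs the interstitial macrophage ratio turned to 1.08, and with clusters weighted alike the alveolar macrophage ratio turned to -3.65. T cell markers in neutrophils summed to 55.3 and 18.1 CPM, and their part in the Icos value was not tested.

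Pdcd1, the gene of PD-1, had 161 and 105 UMIs in effector CD8 T cells, or 190.2 and 235 CPM (0.30, -0.06 to 0.67). Activated CD4 T cells had 90.2 and 119.6 CPM (0.41, -0.01 to 0.83), ILC2 73.6 and 64.4 CPM (-0.19, -1.38 to 0.98) and regulatory T cells 51.0 and 67.1 CPM (0.39, -0.41 to 1.21). None of these 4 intervals leaves 0, so the libraries did not part in these classes at this depth. Effector CD8 T cells stood above activated CD4 T cells in both libraries, while the intervals of ILC2 and regulatory T cells overlapped. A Pdcd1 UMI was found in 38.3% and 36.7% of effector CD8 T cells against 0.0878% and 0.0603% of neutrophils. Naive CD8 T cells held 1 and 5 UMIs and naive CD4 T cells 0 and 2, where 0 allows up to 3.47 CPM.

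Effector CD8 T cells consisted of 2 clusters in different proportions, which matters for each receptor in them. The Ifng, Xcl1 and Gzmb cluster gave 196 of 256 WT-labelled and 86 of 150 KO-labelled cells, and the Ccl5 cluster 60 and 64. Pdcd1 was at 226 and 334 CPM in the Ifng cluster (0.56, 0.17 to 0.95) and at 56.0 and 84.6 CPM in the Ccl5 cluster (0.59, -0.66 to 1.91). Ctla4 in the same clusters was at 754 and 909 CPM (0.27, 0.04 to 0.49) and at 252 and 304 CPM (0.27, -0.33 to 0.88). In the Ifng cluster both genes were thus higher in the KO-labelled library beyond counting error, while the intervals of the Ccl5 cluster span 0. With the clusters weighted alike, an alternative chosen after seeing the data, the class ratio of Pdcd1 was 0.57. With doublet calls kept it was -0.15. The class then also held a further cluster of 98 and 150 cells, with a median of 4948 UMIs. In the class without doublet calls, NK cell markers summed to 872 and 1921 CPM, and their part was not tested.

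Lag3, which encodes a receptor for MHC class II, was highest in effector CD8 T cells with 235 and 190.1 CPM (-0.31, -0.69 to 0.07). In the Ifng cluster it was level between the libraries, at 287 and 289 CPM (0.01, -0.39 to 0.40), and in the Ccl5 cluster at 39.2 and 39.5 CPM. The class difference was therefore 0.01 with clusters weighted alike. It was -0.89 with doublet calls kept, when the class held the further cluster given above. Activated CD4 T cells had 61.1 and 41.9 CPM (-0.54, -1.18 to 0.07), with 51 of 65 and 28 of 35 UMIs from the Il17a and Il21 cluster (142 and 110 CPM, against 19.8 and 12.0 CPM in the Cd40lg cluster). Plasmacytoid dendritic cells also carried Lag3, with 33.7 and 34.7 CPM from 19 and 20 UMIs and a UMI in 19.7% and 19.4% of cells, while their T cell markers differed between the libraries as given above. Interstitial macrophages held 11 and 17 Lag3 UMIs, or 1.72 and 3.78 CPM (1.13, -0.05 to 2.37), past 2-fold on few molecules and 0.18 after thinning. No Lag3 UMI was found in B cells (a 0 allows up to 0.748 CPM in the WT-labelled library) or in naive CD8 T cells (up to 5.37 CPM).

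Tigit, the receptor for CD155, was thinly covered, with 155 and 154 UMIs in the compared classes. Regulatory T cells had 64.3 and 71.7 CPM (0.16, -0.59 to 0.90), effector CD8 T cells 47.2 and 44.7 CPM (-0.08, -0.93 to 0.73) and activated CD4 T cells 31.9 and 39.5 CPM (0.31, -0.43 to 1.04). In none of these T cell classes did the libraries part, and the 3 intervals overlap within the KO-labelled library. NK cells had 21 and 53 UMIs, or 21.0 and 44.1 CPM (1.07, 0.31 to 1.87), and a UMI in 4.85% and 9.62% of cells. The larger NK cluster, led by Klra8 (235 and 384 cells), had 10.6 and 38.1 CPM from 7 and 36 UMIs (1.85, 0.66 to 3.26), and the Xcl1 cluster (95 and 84 cells) had 41.6 and 66.0 CPM (0.67, -0.44 to 1.80). After thinning, the NK cell ratio was 0.40. NK cells gave 12.3% of all WT-labelled and 32.1% of all KO-labelled Tigit UMIs.

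Havcr2, the gene of TIM-3, was the only receptor gene of the 6 that was highest outside T cells. The level in cDC1 was 260.4 and 235 CPM (-0.15, -0.33 to 0.03), with a UMI in 82.8% and 73.7% of cells. Nonclassical monocytes followed with 207 and 232 CPM (0.16, -0.35 to 0.68) and cDC2 with 162 and 160.5 CPM (-0.01, -0.21 to 0.19). In none of these 3 classes did the libraries part beyond counting error. B cells had 1 and 4 UMIs, and naive T cells none.

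T cells carried Havcr2 in the effector CD8 class, at 139 and 96.2 CPM (-0.54, -1.07 to -0.02), with 113 of 118 and 37 of 43 UMIs in the Ifng cluster (169 and 137 CPM; -0.30, -0.88 to 0.25). With clusters weighted alike the ratio was -0.21. In regulatory T cells 6 and 19 UMIs gave 11.3 and 43.9 CPM (1.95, 0.57 to 3.57). Neutrophils held 33.2 and 40.0 CPM (0.27, -0.00 to 0.54), but within the F3 and Egln3 cluster (853 and 895 cells) the values were 58.2 and 97.9 CPM (0.75, 0.35 to 1.16) and within the Cass4 and Csf1 cluster (499 and 518 cells) 35.3 and 58.6 CPM (0.73, 0.33 to 1.14). The Slc40a1 and Il1r2 cluster held only 8 and 13 UMIs, or 7.91 and 7.94 CPM. The interstitial macrophage cluster of C1qa and Ccl12 (257 and 386 cells) had 19.7 and 39.4 CPM (1.00, 0.38 to 1.66), and the Gpnmb cluster (536 and 320 cells) 58.8 and 45.7 CPM (-0.36, -0.69 to -0.05), so that the class as a whole stood at 49.5 and 42.9 CPM.

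**Figure D2:**
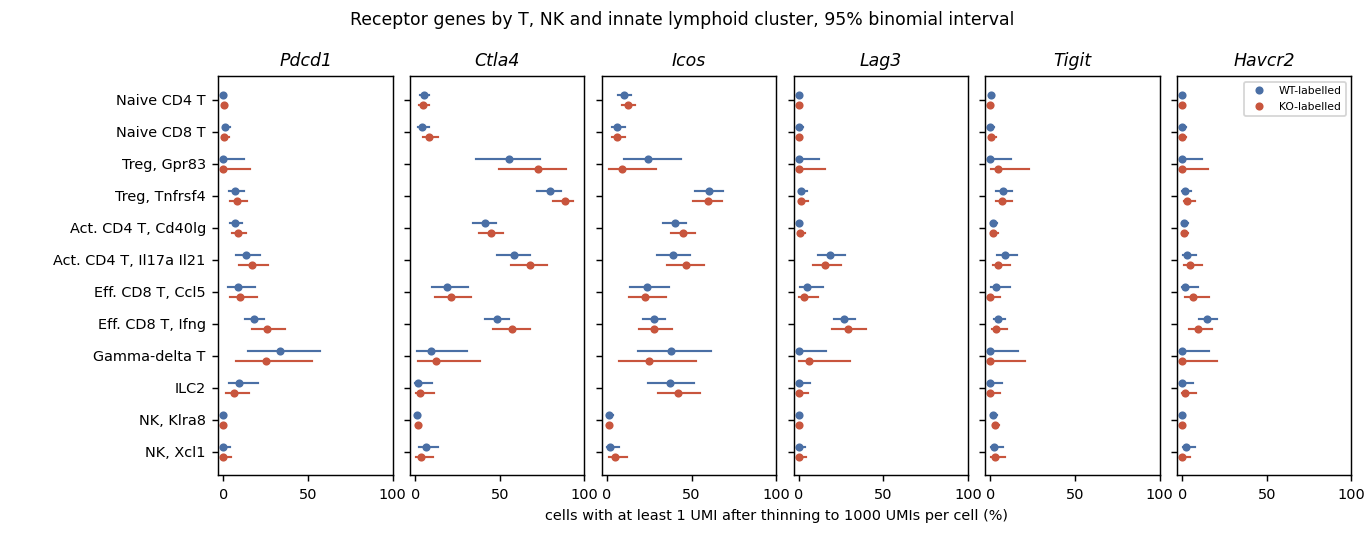
Percent of cells with at least 1 UMI of each receptor gene after thinning every cell to 1000 UMIs, in 12 T cell, NK cell and ILC2 clusters, with exact binomial (Clopper-Pearson) 95% intervals for counting error, WT-labelled above KO-labelled. Ctla4 and Icos reach their highest shares in the Tnfrsf4 regulatory cluster, Lag3 and Havcr2 in the Ifng effector CD8 cluster, and the intervals of the libraries overlap for every gene and cluster drawn.

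UMIs of several inhibitory receptors met in the same cells in effector CD8, activated CD4 and regulatory T cells. Among thinned cells, 25.6% of WT-labelled and 26.4% of KO-labelled effector CD8 T cells held UMIs of 2 or more of Pdcd1, Ctla4, Lag3, Tigit and Havcr2. The Ifng cluster had 31.3% and 40.7%, and the Ccl5 cluster 6.78% and 6.45%. Activated CD4 T cells had 12.8% and 12.2%, of which the Il17a and Il21 cluster had 25.2% and 23.8% and the Cd40lg cluster 6.67% and 7.43%. Thus 1 cluster of each class held most such cells. The shares were, for regulatory T cells, 9.64% and 12.6%, and no naive T cell of 281 and 278 (CD4) or 152 and 172 (CD8) had 2 (exact upper limits 1.30% and 1.32%, 2.40% and 2.12%). UMIs of 3 or more were found in 7.09% and 4.05% of effector CD8 T cells (8.72% and 6.98% in the Ifng cluster) and in 0.959% and 2.10% of activated CD4 T cells (2.91% and 7.14% in the Il17a and Il21 cluster). Ctla4 and Icos together were found in 42.2% and 47.0% of regulatory and in 21.7% and 27.3% of activated CD4 T cells. Thinned shares understate how often RNAs occur together, since a cell keeps few molecules.

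Cd274 encodes PD-L1, the ligand that myeloid cells and many other cells show to PD-1. In CCR7 dendritic cells it was at 1248 and 1295 CPM (0.05, -0.06 to 0.17), with a UMI in 97.8% and 97.5% of cells. Interstitial macrophages had 865 and 662 CPM (-0.39, -0.45 to -0.32), neutrophils 787 and 461 CPM (-0.77, -0.83 to -0.71) and classical monocytes 396 and 209 CPM (-0.93, -1.04 to -0.81). The mature dendritic cells were thus level between the libraries, while these phagocytes held less Cd274 in the KO-labelled one. Nonclassical monocytes had 350 and 207 CPM (-0.76, -1.21 to -0.30), cDC2 439 and 367 CPM (-0.26, -0.39 to -0.14) and cDC1 263 and 218 CPM (-0.27, -0.45 to -0.09). Alveolar macrophages were close at 388 and 360.4 CPM (-0.11, -0.20 to -0.02), as were B cells at 298 and 262 CPM (-0.19, -0.33 to -0.05).

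Of the 17 classes with at least 20 Cd274 UMIs, 13 had a ratio below 0, and in 10 of them the interval did too; 4 were above 0, none of them with its interval. The median of the 17 was -0.26, and no class passed 2-fold. The lowest ratio was that of classical monocytes and the highest that of naive CD4 T cells, 0.53 (-0.22 to 1.29) from 29 and 36 UMIs. T cells carried the gene as well, at 233 and 254 CPM in regulatory (0.13, -0.25 to 0.51) and at 210.5 and 150.7 CPM in activated CD4 T cells (-0.48, -0.81 to -0.16). Naive CD8 T cells, with 41.2 and 39.6 CPM, had a Cd274 UMI in 10.46% and 10.41% of cells.

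Other markers moved with the libraries in the classes concerned. The neutrophil marker set summed to a higher level in the KO-labelled library in 16 of the 17 classes other than neutrophils, with a median log2 ratio of 0.86, and to 32300 and 46990 CPM in classical monocytes. The interstitial macrophage set was lower in 12 of 17 other classes, and in 11 when its leading gene was left out. In neutrophils it was 187 and 27.3 CPM, of which Apoe made 156 and 4.26 CPM. The T cell set was lower in the KO-labelled library in 14 of 18 classes (median -0.44) and the B cell set in 12 of 17 other classes (median -0.57). The part of these markers in the Cd274 values was not tested. The other interstitial macrophage markers in neutrophils were at 31.0 and 23.0 CPM.

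Neutrophils fell into 4 clusters whose Cd274 levels spanned more than 10-fold. The F3 and Egln3 cluster had 1366 and 1002 CPM (-0.45, -0.54 to -0.35), and the Cass4 and Csf1 cluster 870.2 and 696 CPM (-0.32, -0.42 to -0.23). The Slc40a1 and Il1r2 cluster (662 and 1060 cells) had 187 and 137 CPM (-0.45, -0.74 to -0.16), and the Retnlg and Mmp8 cluster (264 and 843 cells) 90.9 and 65.9 CPM (-0.46, -0.93 to 0.02). All 4 were lower in the KO-labelled library. The 2 clusters with little Cd274 gave more of the KO-labelled cells, and with clusters weighted alike the class ratio was -0.40 in place of -0.77.

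Within each macrophage class, the 2 clusters given here ranked alike for Cd274 in both libraries. Across these clusters the Gpnmb cluster was highest in the WT-labelled library and the Cfb and Cxcl9 cluster in the KO-labelled one. Alveolar macrophages with Cfb and Cxcl9 (121 and 51 cells) had 817 and 816 CPM (-0.00, -0.20 to 0.19), against 319 and 315 CPM in the Krt79 and Ear1 cluster (803 and 475 cells; -0.02, -0.13 to 0.09). Neither cluster parted between the libraries. Both interstitial macrophage clusters did, with 918 and 740.4 CPM in the Gpnmb cluster (-0.31, -0.39 to -0.23) and 696 and 565 CPM in the C1qa cluster (-0.30, -0.42 to -0.18). Classical monocytes also had 2 clusters, at 438 and 224 CPM (-0.97, -1.09 to -0.84; 142 and 594 cells, with 4 of 8 neutrophil markers) and at 170.1 and 70.7 CPM (-1.27, -1.79 to -0.73; 61 and 176 cells). Among B cells the Sox5 cluster stood highest with 507 and 415 CPM (-0.29, -0.52 to -0.06).

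Pdcd1lg2, the neighbour of Cd274 that encodes the other PD-1 ligand, was highest in dendritic cells. CCR7 dendritic cells had 375 and 476 CPM (0.34, 0.14 to 0.55), cDC2 235 and 199.97 CPM (-0.23, -0.40 to -0.06) and cDC1 92.2 and 81.6 CPM (-0.18, -0.48 to 0.13). Interstitial macrophages had 72.0 and 138 CPM from 460 and 622 UMIs (0.94, 0.76 to 1.12), with a UMI in 25.9% and 37.8% of cells. In this class the 2 PD-1 ligand genes thus parted, Cd274 being lower and Pdcd1lg2 higher in the KO-labelled library. Neutrophils, at 16.4 and 11.7 CPM (-0.49, -0.93 to -0.05), and alveolar macrophages, at 14.2 and 17.1 CPM, held little. They lay below some lymphocyte classes: regulatory T cells had 49.1 and 69.4 CPM, activated CD4 T cells 50.7 and 58.6 CPM and B cells 39.7 and 46.2 CPM. Other lymphocyte classes held less: plasma cells had 5.55 and 3.98 CPM and naive CD4 T cells 1 and 1 UMIs. Naive CD8 T cells had no UMI in either library.

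Of the interstitial macrophage clusters, only the Gpnmb cluster parted in Pdcd1lg2, with 31.2 and 78.4 CPM (1.33, 1.01 to 1.64). In the C1qa and Ccl12 cluster the level was higher but alike in both libraries, 202 and 211 CPM (0.06, -0.15 to 0.28). Most WT-labelled cells of the class were in the Gpnmb cluster (536 of 793) and most KO-labelled cells in the C1qa cluster (386 of 706). With clusters weighted alike the class ratio was 0.31 in place of 0.94. Classical monocytes had 21.8 and 11.9 CPM (-0.87, -1.37 to -0.34) from 44 and 125 UMIs. The ratio was -2.36 at a clustering resolution of 0.5, where the class held only 61 and 174 cells. In effector CD8 T cells 16 and 20 UMIs gave 18.9 and 44.7 CPM (1.24, 0.22 to 2.29), past 2-fold on few molecules.

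**Figure D3:**
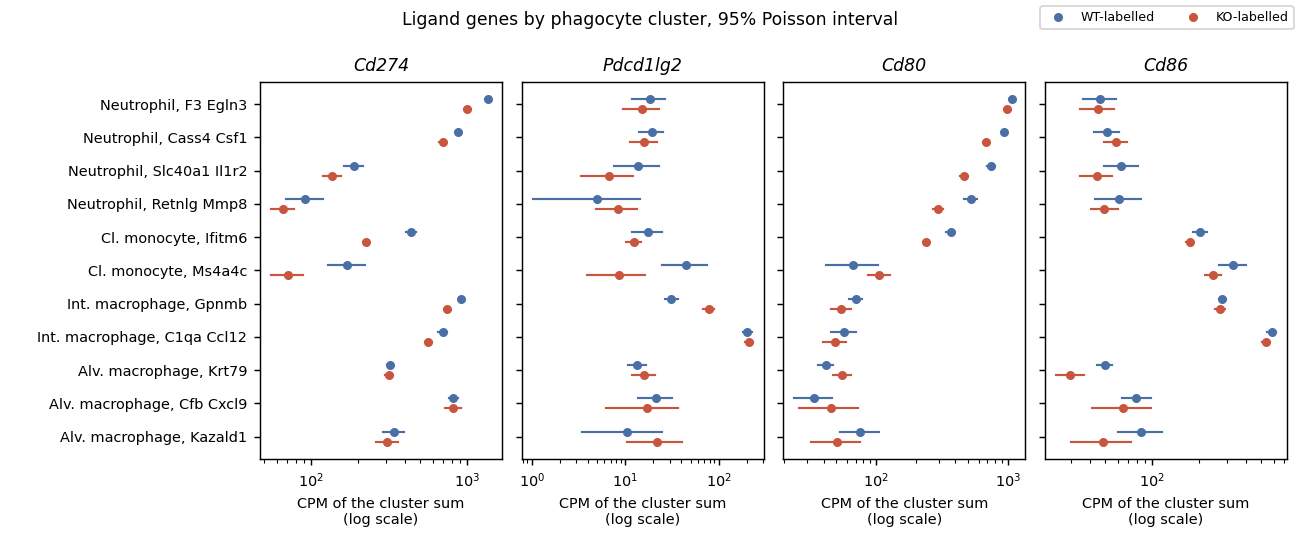
Levels of the 4 ligand genes (CPM of the cluster sum, log scale) in 11 phagocyte clusters named by leading genes, with exact Poisson 95% intervals for counting error, WT-labelled above KO-labelled. Cd274 is lower in the KO-labelled library in every neutrophil, classical monocyte and interstitial macrophage cluster, whereas Pdcd1lg2 is higher in the Gpnmb cluster of interstitial macrophages.

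Cd80, whose product binds both CD28 and CTLA-4, had its highest class level in neutrophils in these libraries. Neutrophils had 888 and 586 CPM from 4865 and 4399 UMIs (-0.60, -0.66 to -0.54), and they gave 60.9% of all WT-labelled and 50.03% of all KO-labelled Cd80 UMIs. Of their cells 65.6% and 52.2% held a UMI, and 50.9% and 36.8% after thinning, whereas 0.303% and 0.641% of NK cells did, at median depths of 2827 and 2363.5 UMIs. CCR7 dendritic cells followed with 476 and 401 CPM (-0.25, -0.45 to -0.05), and classical monocytes with 322 and 225 CPM (-0.51, -0.64 to -0.39). Classical monocytes also held neutrophil markers, as given above, and the part of these in their Cd80 value was not tested. All 3 leading classes were lower in the KO-labelled library by less than 2-fold. Alveolar macrophages went the other way at a low level, 42.8 and 54.3 CPM (0.34, 0.09 to 0.59), with a ratio of -0.13 after thinning.

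Neutrophil clusters differed in how far Cd80 parted. It was nearly level in the F3 and Egln3 cluster, with 1066 and 982 CPM (-0.12, -0.22 to -0.01), and lower by more in the Cass4 and Csf1 cluster, with 936 and 677 CPM (-0.47, -0.56 to -0.37). The Slc40a1 cluster had 743 and 466 CPM (-0.67, -0.82 to -0.52) and the Retnlg cluster 521 and 296 CPM (-0.82, -1.01 to -0.62). Cd80 therefore spanned far less of a range over these clusters than Cd274 did, and it parted most in the clusters that held least Cd274. Cells with both genes made up 17.6% of WT-labelled and 10.4% of KO-labelled thinned neutrophils. In classical monocytes the deeper cluster had 368 and 239 CPM (-0.63, -0.75 to -0.50) and the other 67.4 and 105.2 CPM (0.64, -0.04 to 1.39), so the class value is that of the first. The deeper cluster had 4 of 8 neutrophil markers. At a clustering resolution of 0.5 the cluster with its leading genes (182 and 659 cells) stayed unnamed. The class then held only 61 and 174 cells, and its ratio was 0.64.

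Cd86, the other CD28 and CTLA-4 ligand, followed the dendritic cells. CCR7 dendritic cells had 1196 and 1047 CPM (-0.19, -0.32 to -0.07), cDC1 640 and 614 CPM (-0.06, -0.17 to 0.05) and cDC2 514 and 416 CPM (-0.31, -0.42 to -0.19). Interstitial macrophages had 354 and 391 CPM (0.14, 0.05 to 0.23), B cells 283 and 261 CPM (-0.11, -0.25 to 0.02) and classical monocytes 222 and 181 CPM (-0.30, -0.44 to -0.14). The classes named so far thus had the same order in both libraries, with differences of at most 0.31 on the log2 scale. Nonclassical monocytes had 244 and 167 CPM from 60 and 67 UMIs (-0.55, -1.07 to -0.02). Their level was above that of classical monocytes in the WT-labelled library and below it in the KO-labelled one. Alveolar macrophages had 55.1 and 33.8 CPM from 443 and 138 UMIs (-0.71, -0.99 to -0.43), and the main Krt79 cluster 49.4 and 29.8 CPM (-0.73, -1.08 to -0.39). Neutrophils had 53.1 and 50.2 CPM (-0.08, -0.31 to 0.14), far from their Cd80 pattern. NK cells held 2 and 5 UMIs.

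B cell clusters differed in Cd86. The Sox5 and Fcrl5 cluster had 412 and 284 CPM (-0.54, -0.81 to -0.26), while the large Ighd and Fcer2a cluster (1010 and 686 cells) had 289 and 326 CPM (0.18, 0.00 to 0.35). The Vpreb3 cluster (292 and 305 cells) had 116 and 110.2 CPM. In CCR7 dendritic cells 27.6% and 17.8% of thinned cells held both Cd80 and Cd86, and 24.6% and 30.5% held both Cd274 and Pdcd1lg2.

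Ligand RNAs were also present in T cells. In regulatory T cells Cd80 had 6 and 15 UMIs, or 11.3 and 34.7 CPM (1.61, 0.17 to 3.27), and Cd86 had 16 and 30 UMIs, or 30.2 and 69.4 CPM (1.198, 0.28 to 2.17). These 2 and Havcr2 are the genes past 2-fold in that class, and all 3 had their highest levels in myeloid classes. Markers of other cells moved the same way there: the interstitial macrophage set summed to 26.5 and 190 CPM (4 and 1 of 11 markers at 0), the NK set to 11.3 and 157 CPM (8 and 5 of 11 at 0) and Cd74 to 34.0 and 148 CPM, while the T cell set was at 4989 and 4516 CPM with 0 of 10 at 0. The part of these markers was not tested. After thinning, the Cd86 ratio was 0.33 and that of Cd80 turned to -0.45.

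**Figure D4:**
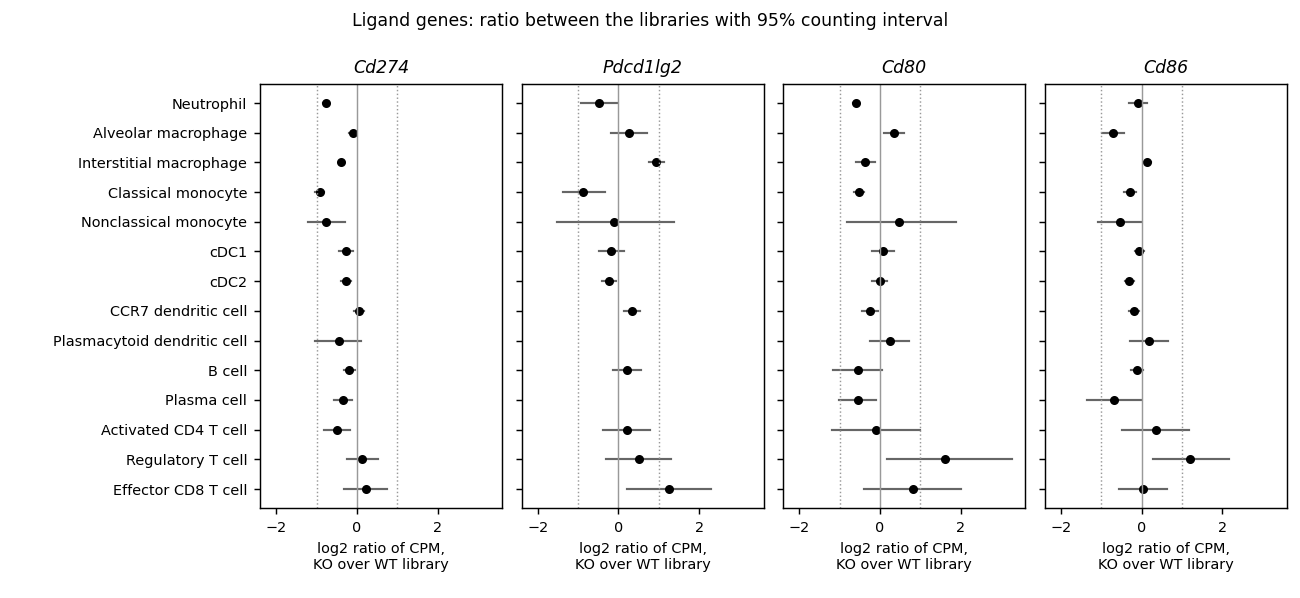
Log2 ratio of CPM, KO-labelled over WT-labelled library, of the 4 ligand genes in 14 classes (points) with exact conditional binomial 95% intervals for counting error (bars); the dotted lines mark 2-fold, and pairs under 20 UMIs are not drawn. Most Cd274 points lie left of 0 and none passes 2-fold, Pdcd1lg2 is split, and the regulatory T cell points of Cd80 and Cd86 lie right of the 2-fold line with wide bars.

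The wider pathways were read from 12 gene lists with 98 entries, counting pairs of gene and class as above. Among the CD28 family 2 of 59 pairs were 2-fold higher and 8 lower, and these 8 were all in neutrophils, macrophages, classical monocytes and plasmacytoid dendritic cells, where they concern Cd28, Btla, Icos and Ctla4. T cell markers were lower in the KO-labelled library in most classes, as given above, and their part in these 8 was not tested. Among the B7 family ligands 3 of 87 pairs were higher and 2 lower. Nectin-binding receptors had 1 higher and 1 lower of 23, nectins 2 and 4 of 28, and the TIM family with its ligands 2 and 2 of 59. LAG-3 relatives and ligands had 5 and 8 of 86, and other inhibitory pairs 3 and 2 of 107. Proteins that stabilise or traffic checkpoint molecules had 0 and 2 of 70, and signalling proteins below the receptors 0 and 7 of 189. Transcription factors of activated and exhausted T cells had 5 and 20 of 223, follicular helper genes 1 and 3 of 47, and the interferon-gamma pathway to PD-L1 1 and 4 of 144. In the interferon-gamma list the median ratio was -0.35 over 9 genes in neutrophils and -0.34 over 9 genes in classical monocytes, against -0.07 and -0.05 over all genes of those classes. The backgrounds for these counts are the shares of all pairs given above, 2.31% higher and 2.44% lower, and several lists hold genes described here.

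Among other pathway genes, Irf1, the interferon-induced factor that acts on the Cd274 promoter, had 1121 and 578 CPM in neutrophils (-0.96, -1.01 to -0.90) and 615 and 265 CPM in classical monocytes (-1.22, -1.31 to -1.12). Cd274 was lower in these classes too, and also in others for which Irf1 is not given here. A link between the genes was not tested. Maf was at 99.6 and 215 CPM in interstitial macrophages (1.11, 0.96 to 1.25). Il21, the cytokine of follicular helper and related CD4 T cells, was at 153 and 63.4 CPM in activated CD4 T cells (-1.27, -1.75 to -0.82), and Angptl2 at 255 and 169.8 CPM (-0.58, -0.89 to -0.29), whereas Tox2 was at 99.6 and 157 CPM (0.65, 0.27 to 1.04). Activated CD4 T cells thus had more Ctla4 and Tox2 and less Il21 in the KO-labelled library.

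Of the relatives of the 10 genes, Btla, an inhibitory receptor of B cells, had 36.1 and 15.4 CPM in classical monocytes (-1.23, -1.64 to -0.81), in which B cell markers summed to 87.6 and 55.3 CPM. Vsir, the gene of VISTA, was at 102 and 199.5 CPM in nonclassical monocytes (0.97, 0.31 to 1.68) and at 19.6 and 38.8 CPM in cDC2 (0.99, 0.48 to 1.52). Pvr, which encodes CD155, the ligand of TIGIT, was at 5.48 and 15.2 CPM in neutrophils (1.47, 0.88 to 2.10). Cd226, the activating counterpart of TIGIT, was at 136 and 84.7 CPM in naive CD4 T cells (-0.69, -1.15 to -0.23). Nectin2 in CCR7 dendritic cells was at 35.5 and 17.9 CPM (-0.99, -1.96 to -0.11). Timd4 was at 136 and 189 CPM in cDC1 (0.48, 0.25 to 0.71), Cd200 at 54.3 and 22.4 CPM in effector CD8 T cells (-1.28, -2.43 to -0.27), and Cd83, which steadies CD86 on the surface, at 85.1 and 37.5 CPM in classical monocytes (-1.18, -1.44 to -0.91). Tox was at 101 and 8.68 CPM in plasmacytoid dendritic cells (-3.54, -5.22 to -2.24), in which T cell markers moved the same way. The Ptpn22 phosphatase gene was at 130.1 and 49.9 CPM in nonclassical monocytes (-1.38, -2.27 to -0.53) and at 91.5 and 167 CPM in B cells (0.87, 0.67 to 1.07).

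Genes most like each of the 10 over the 18 classes were sought among 12315 genes by the mean over both libraries of Pearson's r of log2(CPM + 1). The points share their 2 libraries, and r is a description. Pdcd1 was most like Cxcr6 (0.939), Ctla4 most like Crmp1 (0.897) and Gas2 (0.861), Icos most like Camk4 (0.961), Lag3 most like Dlg2 (0.835), Tigit most like Rgs16 (0.890) and Havcr2 most like E230029C05Rik (0.857). On the ligand side Pdcd1lg2 was most like Nfkb2 (0.917), Nfkbib (0.871) and Relb (0.831), Cd274 most like Bcl2a1b (0.878), Cd80 most like Skap2 (0.899) and Cd86 most like Cd40 (0.876) and H2-Eb1 (0.854). Among the 10 themselves the highest values were those of Pdcd1 with Icos (0.884), Ctla4 with Tigit (0.841) and Cd274 with Cd80 (0.816).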

How the data were processed

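The authors deposited UMI counts per gene and cell barcode, not normalized, for barcodes already called as cells. Alignment and counting used Cell Ranger 7.1.0 and 7.0.0 on mm10, per the submitters' processing notes, while the version named per the file headers is 7.0.0. No source used here says if intronic reads were counted. Lung cells were sorted for CD45.2 and run with 10x Genomics 3′ chemistry, per the labels' protocols. The labels elsewhere name a lung cell lysate and circulating leukocytes. The libraries held 9024 (WT-labelled) and 10102 (KO-labelled) barcodes with 42913843 and 47442215 gene UMIs. Tags of 5 antibodies were not used here.

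Barcodes with under 200 genes or over 10% mitochondrial UMIs were left out (80 and 61), as were Scrublet doublet calls (expected 8%; 279 and 417, or 3.12% and 4.15%). Both libraries were clustered together in scanpy 1.11.5 without integration, on 3000 variable genes. Left out of these were the 10 genes, the listed genes, Plaur, Y-linked genes, Xist, Tsix, and mitochondrial, ribosomal and antigen receptor variable genes. Then came 15 neighbours on 30 principal components and Leiden clustering at resolution 1 (igraph 0.11.9). Lymphoid clusters were clustered again, giving 19 lymphoid and 28 other clusters. Names came from 27 marker sets. A marker counted if 20% of the cells held it at 2-fold or more over the remaining cells, a name needed 3, a T cell subset also a marker among its 10 leading genes, and clusters with 75% of another lineage's markers stayed unnamed. These limits were set after seeing the data.

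Since each genotype has 1 library, nothing was tested. For each class and library the summed UMIs were scaled to CPM, with exact Poisson intervals. Ratios have exact conditional binomial intervals and shares exact Clopper-Pearson intervals, at 95%. A 0 was taken to allow up to 3 UMIs. A ratio of 2-fold at 20 or more UMIs over both libraries was counted. For thinned shares each cell was reduced to 1000 UMIs at random and shallower cells were left out, 106 and 177 of the neutrophils and at most 24 per library in any other class. The interval code was tested on simulated counts.

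The named genes are the 10 in each compared class, and per list those with most UMIs or with up to 2 highest and 2 lowest ratios at 50 or more UMIs. For likeness, genes with at least 100 UMIs were ranked. Of the 98 list symbols 2 were not in the matrices. The text gives a part of the genes this rule yields. The members, lists and rules were chosen with earlier results of these data known. Alternatives were minimum 500 genes, maximum 5% mitochondrial UMIs, doublets kept, TMM factors (edgeR 4.0.16), DESeq2 1.42.0 size factors, totals without mitochondrial, ribosomal and haemoglobin genes, thinning, leaving out the 5 cells with most UMIs of a gene, clustering with these genes, resolution 0.5, and 50 UMIs per pair. Clusters weighted alike was added after seeing the data. Other software was R 4.3.3, Python 3.11.15, matplotlib 3.10.9, SciPy 1.17.1, NumPy 2.4.6, scikit-learn 1.9.0, anndata 0.12.19 and pandas 2.3.3.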

Additional observations from a re-analysis of the deposited data

How the results depend on the processing

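The counts of 8 pairs at least 2-fold higher and 3 lower did not change with 500 genes per cell, 5% mitochondrial UMIs, TMM or DESeq2 factors or totals without mitochondrial, ribosomal and haemoglobin genes, and were 9 and 3 with these genes used in clustering. They were 5 and 3 with doublet calls kept, 3 and 1 after thinning (73 pairs measured), 5 and 1 without the 5 cells with most UMIs (93 pairs), 6 and 5 at a clustering resolution of 0.5 (107 pairs in 17 classes), 2 and 0 at 50 UMIs per pair (88 pairs), and 2 and 7 with clusters weighted alike, which was chosen after seeing the data. Fewer UMIs or cells enter the thinned, trimmed and 50-UMI counts by construction. At a clustering resolution of 0.5 the classes themselves held other cells, as given for classical monocytes above. The same was so with doublet calls kept, as given for effector CD8 T cells. Otherwise the cause was not tested. Of the 11 ratios at 2-fold or more, those that changed sign were Ctla4 in plasmacytoid dendritic cells (0.325) and Cd80 in regulatory T cells (-0.448) after thinning, Icos in interstitial macrophages without the top cells (1.084) and Icos in alveolar macrophages with clusters weighted alike (-3.649). Of the 102 smaller ratios, 46 changed sign under at least 1 alternative, in 75 of 1197 values, among them Cd80 in classical monocytes and in alveolar macrophages and Pdcd1 in effector CD8 T cells, as given above. TMM and DESeq2 factors moved all neutrophil ratios by 0.10 and 0.12 and all classical monocyte ratios by 0.12, so the neutrophil Cd274 ratio was -0.67 and -0.65. In ILC2 TMM moved them by -0.13. The class with the highest level was the same for 10 of 10 genes by the mean over cells. No paired analysis was possible because each genotype has 1 RNA library. Outside T cells, most classes held fewer than 20 UMIs of Tigit, Lag3 and Pdcd1, so their ratios were not counted there. These included large classes, such as neutrophils with 2 and 3 Pdcd1 UMIs (0.37 and 0.40 CPM). The spread between animals is not in any interval.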

Other observations

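Unnamed lymphoid clusters held a fair part of Icos, 20.3% of its WT-labelled and 21.5% of its KO-labelled UMIs over all unnamed clusters. The cluster led by Il23r and Zbtb16 (67 and 47 cells) had Icos at 845 and 1021 CPM (log2 ratio 0.27, interval -0.01 to 0.56), Cd274 at 336 and 231 CPM and Ctla4 at 77.7 and 154 CPM. The Zbtb16 and Cd160 cluster (43 and 26 cells) had Icos at 461 and 577 CPM and Pdcd1lg2 at 98.4 and 98.1 CPM. A cycling T cell cluster (22 and 40 cells) had Ctla4 at 510.0 and 512 CPM and Icos at 276 and 417 CPM, and a cluster with Sidt1 and Samd3 (154 and 94 cells) had Icos at 101 and 65.4 CPM. Gamma-delta T cells, too few to compare (21 and 17 cells), held 14 and 14 Pdcd1 UMIs, found in 52.4% and 58.8% of cells.

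Cycling cDC1 had less Cd86 than the other cDC1 cluster. That cluster had 704 and 652 CPM, and the cycling cDC1 cluster (22 and 40 cells) 361 and 485 CPM. The cycling cDC2 cluster (22 and 48 cells) is not described here. An unnamed cluster with both nonclassical monocyte and neutrophil markers (38 and 64 cells) had Cd274 at 885 and 438 CPM. A further unnamed cluster of low depth with Ccl3 and Ccl4 (97 and 61 cells) had Cd274 at 622 and 123 CPM.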
